A study of Mus musculus with 7 samples.

Results

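Complex I (NADH:ubiquinone oxidoreductase) is the first enzyme of the mitochondrial respiratory chain. It takes electrons from NADH, passes them to ubiquinone and pumps protons across the inner membrane. The enzyme is L-shaped: a matrix arm holds the NADH-oxidising N module and the quinone-reducing Q module, and a membrane arm is built from modules named after the mitochondrially encoded subunits ND1, ND2, ND4 and ND5. Most subunits are nuclear and carry the name Nduf, and dedicated assembly factors, named Ndufaf, join the modules without staying in the finished enzyme. In liver the enzyme serves the oxidation of fatty acids and amino acids.

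The genes described are the rows of the deposited gene tables whose symbol starts with Nduf. They were 45 of 23366 rows: 38 structural subunits, with the acyl carrier Ndufab1 counted among them, and 7 assembly factors. Of these, 44 had enough counts to be tested, among 11251 genes in all. The mitochondrially encoded subunits and Ndufb1 were not analysed here. Liver RNA came from C57BL/6 mice aged 21 months (n = 3) and 3 months (n = 4), sequenced as strand-specific libraries from RNA enriched for mRNA. The labels name neither sex nor feeding state, and leave unsaid whether the samples are separate animals. The p-values therefore rest on sample-to-sample spread alone, and that spread could be technical. Each library held 4724687 to 11143125 expected counts.

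At 21 months, 7 of the 44 tested complex I genes fell and 0 rose by edgeR (quasi-likelihood fit, p adjusted by Benjamini-Hochberg over all genes). The falls were 15.9% of them. Of all genes tested 11.3% changed, 5.86% lower and 5.47% higher. In 10 complex I genes (22.7%) every old library lay below every young one, as in 12.8% of all genes, and in 0 the old libraries all lay above, as in 11.3% of all genes. At an unadjusted p under 0.05, 14 were lower (31.8%) and 1 was higher, against 13.9% lower and 12.7% higher of all genes. The 7 were the structural subunits Ndufs5, Ndufa13, Ndufb7, Ndufa5, Ndufb3 and Ndufa1 and the assembly factor Ndufaf4, and their falls were 1.32-fold to 1.61-fold. The median log2 fold change (21 months minus 3 months) was -0.11 over the 44 genes, with 33 below 0 and 11 above, against -0.0015 over all genes. It was -0.25 without 21-month replicate 1, -0.03 without 21-month replicate 2 and -0.02 without 21-month replicate 3. On the log2(TPM + 1) scale the complex I median was 0.0039 and that of all genes tested 0.10, so the complex I median was no longer below 0 but still below that of all genes. Only 2 falls (Ndufs5 and Ndufa13) and 1 rise (Ndufa2) passed there by limma, against 2.49% of all genes lower and 7.14% higher, and 74.1% of all calls were higher on that scale, against 48.3% in the count test.

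Ndufs5, a small subunit of the ND2 module on the intermembrane space side, changed most. It stood at 32.5, 25.4 and 29.4 CPM (counts per 1000000, on scaled library sizes) in the 21-month libraries, replicates 1 to 3, against 44.0, 40.0, 52.4 and 52.9 CPM in the 3-month libraries, replicates 1 to 4. Every old library lay below every young library. The log2 fold change was -0.69 ± 0.13 (SE; edgeR adjusted p = 0.00396), a 1.61-fold fall.

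Ndufa13, also known as GRIM-19, is a membrane-arm subunit of the ND1 module. Its values were 82.5, 67.6 and 64.5 CPM at 21 months and 94.7, 105, 107 and 120 CPM at 3 months. The ages were apart again, with replicate 1 the highest of the old libraries. The fall was 1.49-fold (log2 fold change -0.58 ± 0.11 SE, edgeR adjusted p = 0.00506).

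Ndufb7, an intermembrane space subunit of the ND5 module, had 40.0, 35.6 and 35.8 CPM at 21 months and 49.1, 44.0, 50.8 and 52.7 CPM at 3 months. The groups did not overlap (log2 fold change -0.40 ± 0.11 SE, edgeR adjusted p = 0.0262). Promoters are shown for these 3 genes, which had the smallest adjusted p. Each line gives the 150 bases before the annotated start, from RefSeq on GRCm38.p6: chr4:123718187-123718336 on the minus strand for Ndufs5, chr8:69902021-69902170 on the minus strand for Ndufa13 and chr8:83566608-83566757 on the plus strand for Ndufb7. Capitals mark matches, on either strand, to the binding cores described after them.
Ndufs5: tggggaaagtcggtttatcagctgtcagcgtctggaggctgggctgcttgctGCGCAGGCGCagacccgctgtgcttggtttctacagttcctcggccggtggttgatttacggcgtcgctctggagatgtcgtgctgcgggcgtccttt
Ndufa13: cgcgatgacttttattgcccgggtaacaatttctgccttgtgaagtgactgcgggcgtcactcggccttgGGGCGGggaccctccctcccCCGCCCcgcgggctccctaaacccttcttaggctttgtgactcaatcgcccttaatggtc
Ndufb7: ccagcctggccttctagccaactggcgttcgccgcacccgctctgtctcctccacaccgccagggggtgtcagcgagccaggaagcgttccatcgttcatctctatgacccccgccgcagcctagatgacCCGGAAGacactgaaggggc

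The cores searched were GCGC, any base, then TGCGC for NRF1, CCGGAAG for ETS factors such as GABP, AAGATGGCG for YY1, GGGCGG for Sp1, and CCAAT, on both strands over the 300 bases from 250 before to 50 after the start. No core contains another. Of the 45 genes, 39 matched a promoter entry by symbol, with 41 promoters. The NRF1 core, bound by a regulator of nuclear genes for respiration, was in 10 of the 41 (24.4%), against 4.6% of all 32851 promoters and 9.98% of promoters of tested genes. Both promoters of Ndufa5 are among the 10. The YY1 core was in 5 (12.2%), against 1.4% and 3.16%. The ETS core was in 5 (12.2%, against 8.86% and 17.4%), the Sp1 core in 21 (51.2%, against 35.7% and 61.8%) and CCAAT in 13 (31.7%, against 37.4% and 37.8%). The ratio of observed to expected CpG (C followed by G) was above 0.6 in 35 of the 41 (85.4%), against 35.8% and 68.3%. The NRF1 core itself holds CpG, and promoters of like CpG content were not compared. In the printed stretches Ndufs5 holds the NRF1 core, Ndufa13 holds the Sp1 core in 2 places and Ndufb7 holds the ETS core: the 3 genes share none of the 5 cores there.

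Ndufa5, a Q module subunit of the matrix arm, had 19.3, 14.1 and 16.6 CPM at 21 months and 21.2, 20.9, 26.1 and 28.7 CPM at 3 months. Its log2 fold change was -0.52 ± 0.15 (SE; edgeR adjusted p = 0.0368). The highest old library lay just under the lowest young library.

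Ndufb3, in the distal membrane arm, had 23.8, 18.2 and 19.0 CPM at 21 months and 26.6, 26.0, 28.7 and 28.6 CPM at 3 months (log2 fold change -0.42 ± 0.12 SE, edgeR adjusted p = 0.0405). Ndufa1, an X-linked subunit of the ND1 module, had 39.9, 29.5 and 27.2 CPM at 21 months and 43.3, 40.5, 43.5 and 48.7 CPM at 3 months (log2 fold change -0.44 ± 0.13 SE, edgeR adjusted p = 0.0444). In both genes the ages did not overlap, and 21-month replicate 1 came close to the young libraries.

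With replicate number as a block, 3 of the 7 falls still passed by edgeR, which is 6.82% of the tested complex I genes and near the 4.58% of all genes that were lower in that fit: Ndufs5 (adjusted p = 0.00527), Ndufa13 (adjusted p = 0.0125) and Ndufaf4 (adjusted p = 0.0242). Ndufb7 (adjusted p = 0.0557), Ndufa5 (adjusted p = 0.0720), Ndufb3 (adjusted p = 0.0697) and Ndufa1 (adjusted p = 0.0605) did not. In that fit 0 rose by edgeR (1 higher at an unadjusted p under 0.05), against 4.98% of all genes. The log2 fold changes of these 4 in that fit were -0.37, -0.45, -0.42 and -0.41 in the same order, against -0.40, -0.52, -0.42 and -0.44 without the block. No old library shares the number of 3-month replicate 4, so that library adds nothing to the age contrast in the block fit. The block also leaves fewer residual degrees of freedom. The number of falls was 14 without 21-month replicate 1 (31.8%, against 7.91% of all genes), 3 without 21-month replicate 2 and 2 without 21-month replicate 3. It was 3, 4, 2 and 2 without 3-month replicates 1, 2, 3 and 4, and Ndufs5 and Ndufa13 fell in each of these 7 fits. In the other 6 fits 4.55% to 9.09% of complex I genes fell, against 2.2% to 4.3% of all genes.

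**Figure D1:**
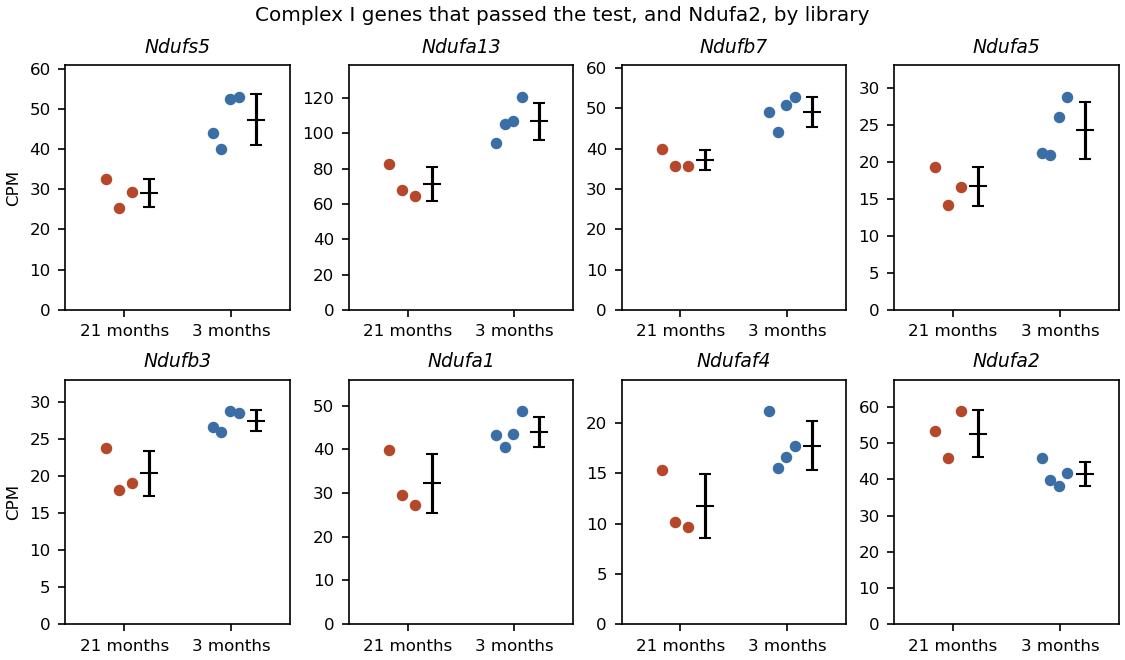
CPM of the 7 genes that fell and of Ndufa2 in each library, 21 months on the left and 3 months on the right; black marks give mean and SD. In Ndufs5 the old libraries sit between 25.4 and 32.5 CPM, all below the young ones, while Ndufa2 leans the other way with touching ranges.

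Among subunits that did not pass, Ndufa2 of the N module had the largest positive log2 fold change. It had 53.3, 45.8 and 58.7 CPM at 21 months and 46.0, 39.7, 38.2 and 41.7 CPM at 3 months, so replicate 2 of the old group fell just within the young range (log2 fold change 0.35 ± 0.11 SE, edgeR adjusted p = 0.0576). It passed in 6 of the 21 other settings, among them the length-based offset given below (edgeR adjusted p = 0.0200). Ndufb2, Ndufa7 and Ndufa12 followed among structural subunits, at log2 fold changes of 0.13, 0.11 and 0.11; their edgeR adjusted p lay between 0.565 and 0.643.

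On the negative side, Ndufs6, a zinc-binding subunit of the N module, had 50.5, 35.6 and 38.1 CPM at 21 months and 52.7, 47.7, 60.9 and 53.7 CPM at 3 months (log2 fold change -0.37 ± 0.13 SE, edgeR adjusted p = 0.0828). Ndufa6, a Q module subunit, had a log2 fold change of -0.32 ± 0.13 (SE; edgeR adjusted p = 0.137). Ndufb10 of the ND4 module stood at -0.28 ± 0.12 (SE; edgeR adjusted p = 0.144). The ages overlapped in all 3.

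The 7 core subunits, which are shared with bacteria and carry the flavin, the iron-sulfur clusters and the quinone site, all had negative log2 fold changes in the count test, and 0 passed by edgeR (2 lower at an unadjusted p under 0.05). Their median was -0.15, and on the log2(TPM + 1) scale 4 of the 7 stayed below 0. Ndufv1, the NADH- and flavin-binding subunit, had 117, 116 and 120 CPM at 21 months and 133, 141, 143 and 156 CPM at 3 months. The ages did not overlap (log2 fold change -0.28 ± 0.09 SE, edgeR adjusted p = 0.0562), and it passed with the length-based offset (edgeR adjusted p = 0.0422).

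Ndufs8 (-0.17), Ndufv2 (-0.15), Ndufs1 (-0.11), Ndufs7 (-0.11) and Ndufs3 (-0.07), all iron-sulfur or Q module proteins, overlapped between ages, with edgeR adjusted p of 0.429 to 0.714.

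By module, 0 of 8 tested N module genes, 1 of 7 Q, 2 of 5 ND1, 1 of 5 ND2, 0 of 5 ND4 and 2 of 6 ND5 genes fell, and none rose. In the N module 2 genes were lower and 1 higher at an unadjusted p under 0.05, and in the ND4 module 1 was lower. The module medians lay between -0.04 for ND2 and -0.20 for ND4, and those of N, ND1 and ND2 were above 0 on the log2(TPM + 1) scale. Differences between modules were not tested. In the ND2 module Ndufs5 fell while the other 4 ND2 genes had log2 fold changes between -0.05 and -0.01.

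**Figure D2:**
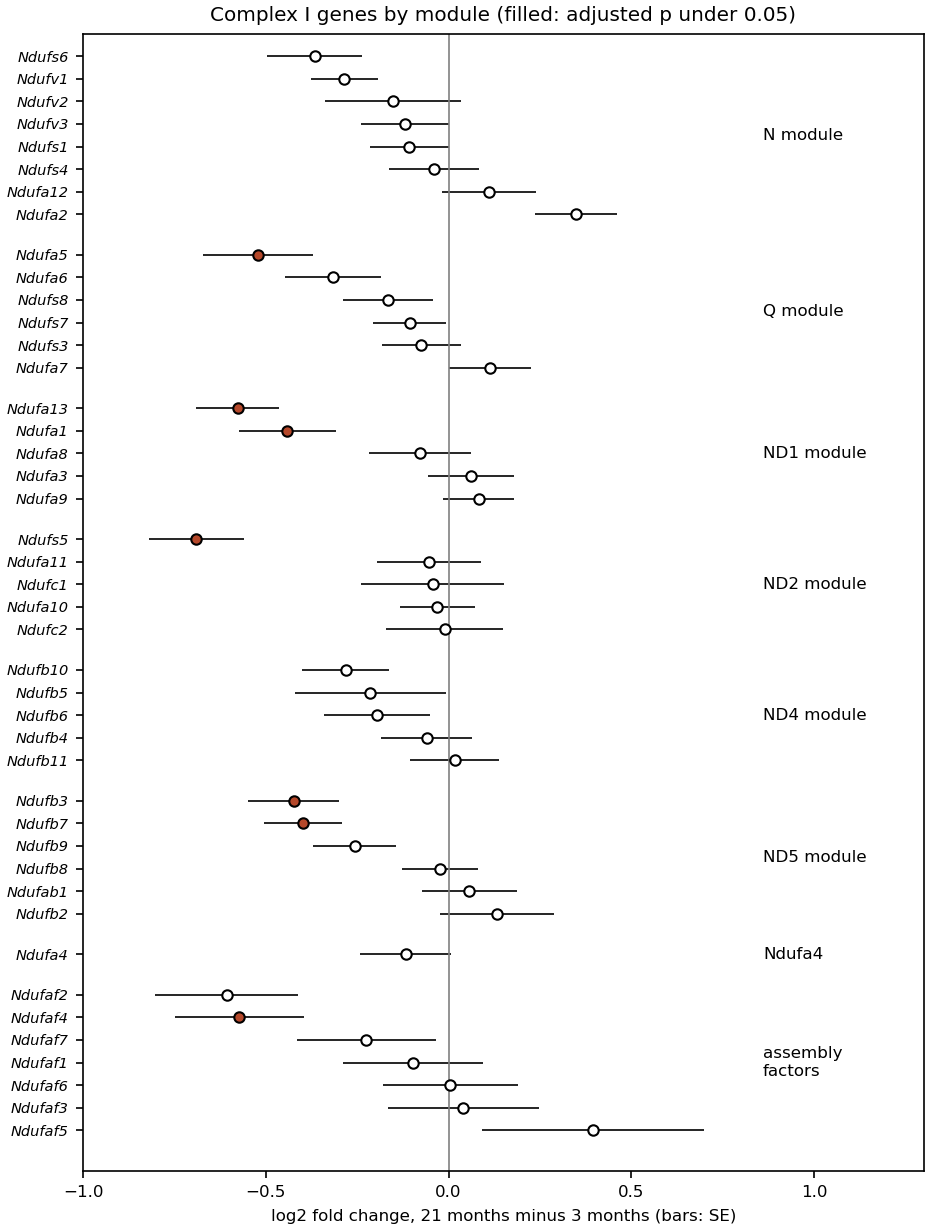
Log2 fold change, 21 months minus 3 months, with its SE for 43 of the 44 tested genes, grouped by module; filled points passed the test. All 7 filled points lie left of 0, and each module except N and ND4 holds at least 1 of the 6 structural ones. Differences between modules were not tested.

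Of the 7 assembly factors, Ndufaf4, which acts on the Q module together with Ndufaf3, was the one that fell. It had 15.4, 10.2 and 9.63 CPM at 21 months and 21.2, 15.5, 16.6 and 17.7 CPM at 3 months (log2 fold change -0.57 ± 0.18 SE, edgeR adjusted p = 0.0482). Replicate 1 of the old group lay just below the lowest young library. Its call was lost in 15 of the 21 other settings. The calls of Ndufa1, Ndufb3, Ndufb7 and Ndufa5 were lost in 17, 14, 12 and 11 of these settings. Those of Ndufa13 and Ndufs5 were lost in 2 and 1.

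Ndufaf2, a paralogue of Ndufa12 that binds a late assembly intermediate, had 4.14, 5.31 and 4.16 CPM at 21 months and 7.66, 6.61, 6.47 and 6.82 CPM at 3 months. The ages were apart, but the fold change did not pass (log2 fold change -0.61 ± 0.19 SE, edgeR adjusted p = 0.0564). Its total over all libraries was 308 counts. Ndufaf3 (0.04 ± 0.21 SE), Ndufaf6 (0.0047 ± 0.19 SE), Ndufaf1 (-0.10 ± 0.19 SE), Ndufaf7 (-0.22 ± 0.19 SE) and Ndufaf5 (0.39 ± 0.30 SE) overlapped between ages, with edgeR adjusted p of 0.446 to 0.994. Ndufaf5 had the fewest counts of the tested genes, 145 over the 7 libraries.

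Of the assembly factors with other names, 10 were tested, and 1 rose and 0 fell by edgeR (0 were lower at an unadjusted p under 0.05). Acad9, an acyl-CoA dehydrogenase relative that serves complex I assembly, rose 1.57-fold to 54.0 ± 4.13 CPM at 21 months, against 34.6 ± 3.90 CPM at 3 months (SD, n = 3 and 4; edgeR adjusted p = 0.00247). The row 1810043H04Rik, which the GRCm38.p6 gene table names Ndufaf8 and which the symbol rule leaves out, had 7.59, 9.22 and 9.16 CPM at 21 months and 8.40, 8.92, 9.51 and 10.4 CPM at 3 months.

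Per unit length, the structural subunits spanned a wide range of levels. Ndufa4, now assigned to complex IV, was highest with 573 TPM at 21 months and 581 TPM at 3 months (means). Ndufa4l2 was lowest, with 2.49 TPM at 21 months and 2.28 TPM at 3 months. Ndufa4 itself had a log2 fold change of -0.12 ± 0.13 (SE; edgeR adjusted p = 0.60), and the acyl carrier Ndufab1 of 0.06 ± 0.13 (SE; edgeR adjusted p = 0.833).

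Ndufa4l2, a hypoxia-inducible relative of Ndufa4, failed the filter on low counts. It had 9, 12 and 6 counts at 21 months and 6, 14, 6 and 5 counts at 3 months; the ages overlapped. Summed over all 45 genes, complex I transcripts made 6818, 5710 and 5856 TPM at 21 months and 6190, 6201, 6733 and 6203 TPM at 3 months, with replicate 1 of the old group above every other library and the other old libraries below all young ones. Assembly factors were 1.24% to 1.39% of that sum at 21 months and 1.23% to 1.5% at 3 months. Genes whose names mark copies (Ndufs5-ps, Ndufa12-ps, Ndufab1-ps, Ndufs6b and Ndufa11b) exist in the GRCm38.p6 table, so the estimated counts of their parents may share reads and are uncertain to that extent.

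Complex I transcripts are short: the median length was 710 bases over the tested genes and 2812 bases over all genes tested. Below 600 bases the 198 genes of all kinds had a median log2 fold change of -0.12, and 13.6% of them fell; the 17 complex I genes of that class had the same median, -0.12, and 5 of them fell (29.4%). At 600 bases and over the median of all genes was 0.00060 and 5.72% fell, while the 27 complex I genes had a median of -0.10, of which 2 fell (7.41%) and 21 lay below the median of all. In that shortest class, which held 5 of the 7 falls, the complex I median was therefore that of its class. The class median includes the 17 complex I genes themselves and short cytosolic ribosomal protein genes. A median without them was not taken. Over the longer classes the complex I median was lower than that of all genes. Over the 44 genes themselves, log2 fold change and length showed little correlation (Pearson r = 0.038, Spearman rho = -0.010), across genes that share the same 7 libraries.

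With an offset fitted to gene length in each library, 7 complex I genes fell (15.9%) and 1 rose by edgeR, against 6.31% of all genes lower and 6.69% higher. Of the 8, 6 were among the 7 falls above; Ndufaf4 no longer passed (adjusted p = 0.0618), while Ndufv1 and Ndufa2 did. The median over complex I genes was then -0.05, against 0.01 over all genes. A further fit took each library's shortfall of effective length, the median over genes of length minus effective length, as a covariate. What this shortfall reflects was not tested. Only Ndufs5 passed in that fit (log2 fold change -0.71, edgeR adjusted p = 0.0470), and Ndufa13 did not (-0.47, edgeR adjusted p = 0.10). Ndufa5 kept its log2 fold change in that fit, at -0.53 ± 0.20 (SE) against -0.52 ± 0.15 without the covariate. Ndufb7 had -0.37 ± 0.14 against -0.40 ± 0.11, so the SE was larger in both. Ndufaf4 (-0.33 against -0.57), Ndufa1 (-0.26 against -0.44), Ndufb3 (-0.32 against -0.42) and Ndufa13 (-0.47 against -0.58) had smaller falls with the covariate. The complex I median was then -0.0153, against -0.0087 over all genes. That fit called 332 genes in all, against 1274, with 1.36% of all genes lower and 1.59% higher. The shortfall was 35.4, 30.9 and 21.4 bases in 21-month replicates 1 to 3 and 34.4 to 38.8 bases at 3 months, so it partly moves with age, and the 2 cannot be told apart here.

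**Figure D3:**
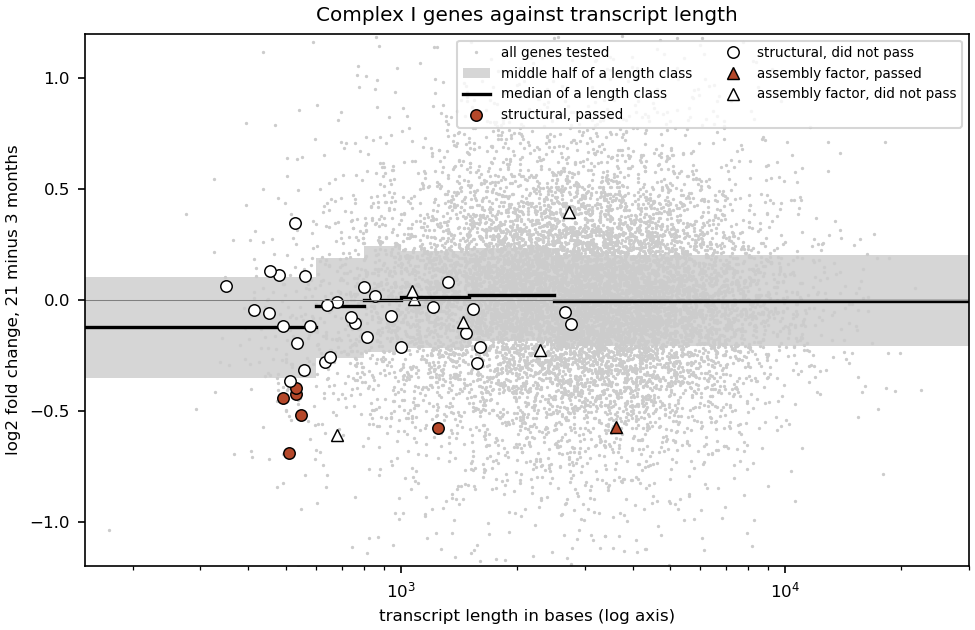
Log2 fold change against transcript length (log axis) for all genes tested, with the median and middle range of each length class; the 5 filled circles below 600 bases and Ndufa13 at 1249 bases are the structural subunits that fell, and the filled triangle is Ndufaf4. The class under 600 bases has a median of -0.12, below the other classes, and genes beyond the y axis are not drawn.

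Within the old group, complex I transcripts varied together. In 21-month replicate 1, 40 of 44 genes (90.9%) stood above both other old libraries, against 69.9% of 435 other genes under 800 bases and 38.6% of all genes tested. The median complex I gene was 0.12 above the 3-month mean on the log2 CPM scale in that library, and 0.26 and 0.28 below it (-0.26 and -0.28) in replicates 2 and 3. In the 3-month libraries the same median ran between -0.13 and 0.10. The other genes under 800 bases moved the same way, with medians of 0.08, -0.16 and -0.16 in 21-month replicates 1 to 3. So did mitochondrial ribosomal proteins (0.09, -0.27 and -0.20) and complex V (0.03, -0.22 and -0.26), and complex IV was also highest in replicate 1 (0.34, 0.00 and 0.01). Cytosolic ribosomal proteins were highest in replicate 1 too, but below the 3-month mean in every old library (-0.11, -0.23 and -0.27).

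After the length-based offset, replicate 1 was the highest old library for 28 of 44 complex I genes (63.6%), against 37.0% of the other short genes and 38.8% of all genes. The complex I medians were then 0.05, -0.11 and -0.15 in the old libraries. The median SD between libraries on the log2 scale was 0.22 at 21 months and 0.14 at 3 months for complex I, against 0.20 and 0.18 for all genes.

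**Figure D4:**
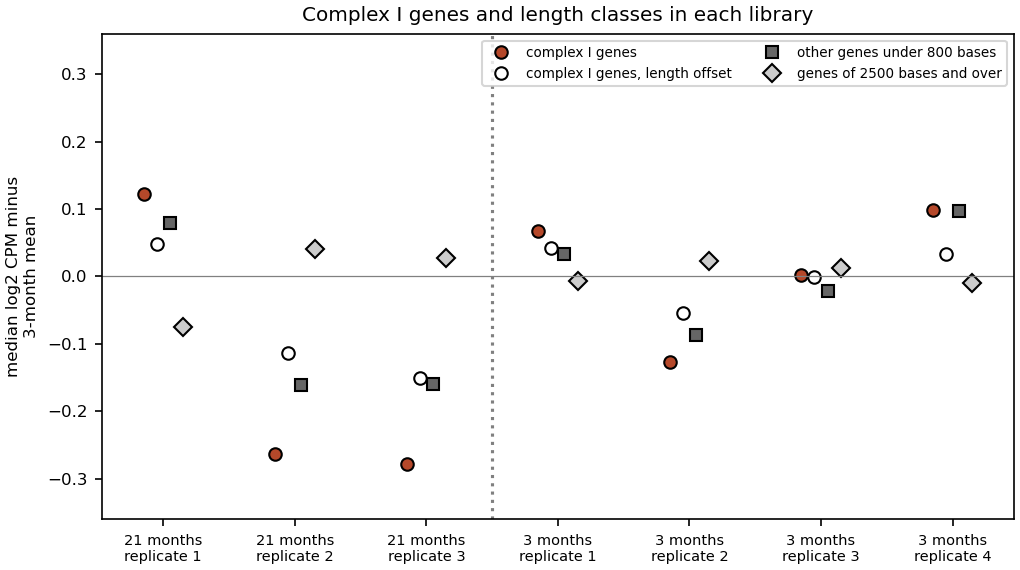
Median log2 CPM minus the 3-month mean in each library, 21 months left of 3 months, for complex I genes with and without the length offset, other genes under 800 bases and genes of 2500 bases and over. Complex I lies at 0.12 in 21-month replicate 1 and at -0.26 and -0.28 in replicates 2 and 3, and the other short genes have the same signs in the old libraries.

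Side by side with complex I, 0 of 6 complex II genes changed by edgeR (1 lower and 1 higher at an unadjusted p under 0.05). In complex III 1 of 10 fell, Uqcrh (1.36-fold). In complex IV 1 of 11 rose, Cox8a (1.27-fold), and in complex V 1 of 16 fell, Atp5b (1.25-fold). Of all genes tested 5.86% fell and 5.47% rose. At an unadjusted p under 0.05 (edgeR), 1 gene of complex III, 1 of IV and 6 of V (37.5%) were lower, against 13.9% of all genes. Higher were 0, 2 and 0, against 12.7%. The medians of complexes II to V were -0.04, -0.02, 0.11 and -0.15, with genes of similarly short length in complexes III to V (569 to 870 bases). With the length-based offset they were -0.03, 0.04, 0.14 and -0.15, against -0.05 for complex I. Of 76 mitochondrial ribosomal proteins 4 fell (5.26%) and 0 rose by edgeR, with a median of -0.15. At an unadjusted p under 0.05, 13 of them were lower (17.1%) and 0 higher. Mrps5, Mrpl18 and Mrps31 had the smallest p. Of 75 cytosolic ribosomal proteins, with the same median length as complex I, 21 fell (28%) and 2 rose (2.67%), with a median of -0.20. With the shortfall covariate 0 of the mitochondrial and 0 of the cytosolic ribosomal proteins were lower by edgeR, with medians of -0.04 and -0.16. On the log2(TPM + 1) scale the medians of complexes II to V were 0.0852, 0.0875, 0.225 and -0.0351, against 0.104 over all genes tested. The differences between these lists were not tested.

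Of 14 markers of mitochondrial mass, (import, chaperone and channel proteins and Cs), 0 changed by edgeR (6 lower, or 42.9% against 13.9% of all genes, and 0 higher at an unadjusted p under 0.05), with a median of -0.22. Of 11 regulators of mitochondrial genes, 1 rose and 1 fell by edgeR, and 9 log2 fold changes were negative and 2 positive (median -0.25). At an unadjusted p under 0.05, 5 were lower (45.5%, against 13.9% of all genes) and 1 was higher. The coactivator Ppargc1a rose to 5.94 ± 1.40 CPM at 21 months, against 3.21 ± 0.597 CPM at 3 months (SD, edgeR adjusted p = 0.0348). Its relative Pprc1 fell to 13.4 ± 1.47 CPM at 21 months, against 25.7 ± 3.45 CPM at 3 months (SD; edgeR adjusted p = 0.000944). Nrf1 had a log2 fold change of -0.44 ± 0.19 (SE, edgeR adjusted p = 0.156) and was chosen after its value was seen. Of the factors for other cores searched, Gabpa had -0.26 ± 0.11 and Yy1 -0.23 ± 0.13 (SE, edgeR adjusted p = 0.158 and 0.255). The Nrf1 protein binds the NRF1 core, which the printed Ndufs5 stretch matches by sequence only. Binding was not measured.

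The complex I genes lay on 16 chromosomes, with at most 6 on any of them, and 2 (Ndufa1 and Ndufb11) on X. Of the 39 genes with a promoter entry, 11 had the start of another gene within 1000 bases upstream on the opposite strand, as did 31.7% of their promoters against 11.3% of all and 17.5% of promoters of tested genes. Ndufa7 of the Q module starts 8 bases from the ribosomal protein gene Rps28. Ndufa7 had 44.4 to 56.7 CPM at 21 months and 42.6 to 50.2 CPM at 3 months (log2 fold change 0.11 ± 0.11 SE, edgeR adjusted p = 0.565). Rps28 had a log2 fold change of -0.42 ± 0.10 (SE; edgeR adjusted p = 0.0126); the pair was chosen after its values were seen, and the difference was not tested.

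The tissue label held against its markers: 6 hepatocyte transcripts summed to 70347 to 75164 CPM at 21 months and 51208 to 65461 CPM at 3 months, with Alb higher and Apoa1 lower. Markers of B and plasma cells (8.18 to 37.8 CPM at 21 months, 2.76 to 3.64 CPM at 3 months; 1 of 2 tested rose), T and NK cells (2.27 to 3.77 and 0.607 to 1.12 CPM; 0 tested) and neutrophils (1.38 to 3.77 and 0.343 to 1.21 CPM; 0 tested) were higher in every old library than in any young one. Bile duct markers were lower (28.9 to 31.6 and 31.8 to 46.3 CPM; 1 of 4 tested fell). Kupffer (59.8 to 166 and 106 to 164 CPM), endothelial (86.5 to 192 and 121 to 208 CPM; 1 of 6 fell), stellate (174 to 250 and 126 to 180 CPM; 1 of 6 rose), red cell (1016 to 1275 and 618 to 1717 CPM), adipocyte (2.23 to 4.24 and 0.202 to 6.93 CPM) and exocrine pancreas lists (13.0 to 15.3 and 11.3 to 15.3 CPM, with Cpa1, Pnlip, Prss1 and Ctrb1 at 0) overlapped. Their part in the complex I values was not tested. In bulk liver, fewer cells of a type and less RNA per cell cannot be told apart.

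**Figure D5:**
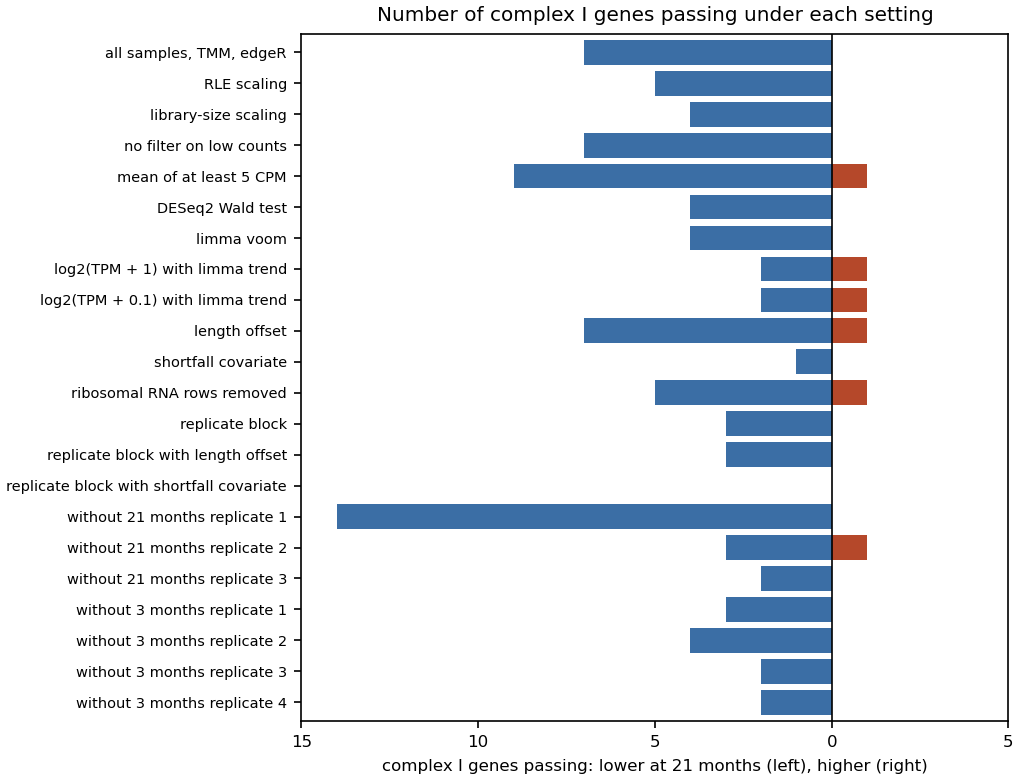
Number of complex I genes that passed under each setting, lower at 21 months to the left of 0 and higher to the right. The counts run from 0 to 14 lower and from 0 to 1 higher, with 14 in the fit without 21-month replicate 1.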

How the data were processed

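Per the labels' protocols, liver RNA (Trizol, then RNeasy) was enriched for mRNA and fragmented, and strand-specific libraries were amplified by PCR; molecular identifiers are not mentioned. TopHat, RSEM, edgeR and the mm9 build appear in the submitters' processing notes. Their versions and the strand setting of the counting were not stated there. The authors deposited 1 table per library with expected counts (86.5% whole numbers) and TPM per gene; per the file headers, length and effective length stand beside them.

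Expected counts were rounded, filtered with edgeR's filterByExpr (minimum count 10, total 15), scaled by TMM and tested with edgeR 4.0.16 (robust quasi-likelihood, R 4.3.3), 21 months against 3 months, threshold 0.05, Benjamini-Hochberg over all genes; the test was tried on simulated data. SE is the log2 fold change over the root of F. Alternatives used limma 3.58.1 (voom; TPM with pseudocount 1 or 0.1), DESeq2 1.42.0, other scalings and filters, a per-library loess offset on length (span 0.5), the effective-length shortfall as covariate, and replicate blocks. Libraries with the same replicate number deviated together (r = 0.107, 0.174 and 0.104 across genes), each over 0.1, so replicate blocks were fitted as an alternative. Results are from the unpaired fit unless another setting is named. The pairing is weak: 21-month replicate 1 correlated more with 3-month replicate 4 (r = 0.159), and no label says what a number shares. No 2 libraries agreed within counting noise. At most 3 counts are allowed by a count of 0, or 0.257 to 0.607 CPM, for counting error only. Members, modules and lists were chosen with earlier results of these data known. Genes were named by rule: all that passed, the 5 largest other changes in each direction, core subunits, assembly factors, extremes of mean TPM, Ndufab1, Ndufa4 and genes that failed the filter; of other lists, genes that passed, at most 3 by adjusted p. Figures used Python 3.11.15 and matplotlib 3.10.9. The values of 1 tested gene are not reported here, though it is counted in the totals.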

Additional observations from a re-analysis of the deposited data

Results flagged for a closer look

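Ndufb6, an ND4 module subunit, stood at 31.4 CPM in 3-month replicate 2, far below the other young libraries at 41.1 to 42.9 CPM. Its gap to the nearest of them was 0.841 of the group's range, above Dixon's 95% critical value for 4 samples. Of 44 genes examined this way 1 was singled out, and chance alone does so in about 1 of 20 groups.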

How the results depend on the processing

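The count of complex I genes that fell was 7 with all samples (15.9%, against 5.86% of all genes). It was 9 with a mean of at least 5 CPM (20.9%, against 7.29%). With RLE scaling or ribosomal RNA rows removed it was 5 (11.4%, against 5.49% and 5.29%). It was 4 with library-size scaling, DESeq2 and limma voom (9.09%, against 4.14%, 4.75% and 5.61%). Both log2(TPM + 1) and log2(TPM + 0.1) gave 2 (4.55%, against 2.49% and 2.4%). The shortfall covariate gave 1 (2.27%, against 1.36%). The replicate block gave 3, also 3 together with the length offset (6.82%, against 4.58% of all genes in both fits). It gave 0 together with the shortfall covariate, a fit with 1 residual degree of freedom (edgeR, also 0 at an unadjusted p under 0.05). Both combined fits were chosen after seeing the data. The count of rises, 0 with all samples, was 1 (Ndufa2) with a mean of at least 5 CPM, both TPM scales, the length offset and ribosomal RNA rows removed. All genes called, 1274, fell to 332 with the covariate and 94 with block and covariate. The falls among them, 659, became 280 and 270 on the 2 TPM scales, 153 with the covariate and 47 with block and covariate. Leaving out 1 library in turn gave 580 to 1642 calls, 250 to 900 falls among all genes, and 2 to 14 falls and 0 to 1 rises in complex I, the highest count of falls without 21-month replicate 1 and the lowest without 21-month replicate 3 or 3-month replicate 3 or 4. The complex I median, -0.11, ran from -0.25 without 21-month replicate 1 to -0.02 without 21-month replicate 3 when 1 library was left out, and was above 0 on both TPM scales (0.0039 and 0.0037) and with block and covariate (0.06). Ndufs5 passed in 20 of 21 settings (edgeR adjusted p = 0.491 with block and covariate) and Ndufa13 in 19, the exceptions being both fits with the covariate (edgeR adjusted p = 0.10 and 0.738). None of the 7 genes that passed with all samples changed sign. Of the genes that passed only without 21-month replicate 1, Ndufv2 (-0.47 there) had 0.10 with the covariate. Ndufa4 (-0.31 there) had 0.06 with block and covariate. The cause of these changes was not tested. Ndufaf2 passed with a mean of at least 5 CPM (edgeR adjusted p = 0.0479) and without 21-month replicate 2 (edgeR adjusted p = 0.0497).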
